A study of Mus musculus with 2 samples.

Results

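Awat1, the gene of acyl-CoA wax alcohol acyltransferase 1, and the other genes of neutral lipid acyltransferases were examined in alveolar macrophages sorted from mouse lung. The 9 genes listed were Awat1, Awat2, Dgat2l6, Mogat1, Mogat2, Dgat2, Dgat1, Soat1 and Soat2, and members were the probe set rows annotated with exactly 1 of these symbols. Of them, 7 genes had a row, 1 row each, among 22180 genes named on the arrays. Soat1 and Soat2 were not analysed here. Awat1 was chosen by its difference between the arrays, and the others by their place in the same enzyme families, so the values below describe the arrays and test nothing.

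There were 2 groups of adult C57BL6 littermates with 1 array each. The array labelled PIKfyve KO (the KO-labelled array) came from mice with floxed Pikfyve alleles and LysM-Cre, a recombinase expressed from the lysozyme 2 locus, and so in myeloid cells in general rather than in alveolar macrophages alone. The array labelled wild type (the WT-labelled array) came from mice with the floxed alleles described without the Cre. In both, live cells positive for Siglec-F and CD11c were sorted from collagenase-treated lung, and 10 ng of total RNA was amplified, labelled with biotin and hybridised. The labels do not state how many mice contributed to an array.

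Neutral lipid acyltransferases join a fatty acid, carried as acyl-CoA, to an alcohol. Their products are the lipids that cells store in droplets or secrete as oily films: triacylglycerol when the acceptor is diacylglycerol, wax esters when it is a long-chain alcohol, retinyl esters when it is retinol and cholesteryl esters when it is cholesterol. The enzymes fall into 2 unrelated families, one that holds DGAT2, the monoacylglycerol acyltransferases and the wax alcohol acyltransferases, and the membrane-bound O-acyltransferases (MBOAT), which hold DGAT1 and the sterol acyltransferases. The wax alcohol enzymes are best known from the sebaceous glands of skin, while macrophages are known for storing triacylglycerol and cholesteryl esters.

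Awat1, Dgat2l6 and Awat2 lie close together on the X chromosome, and the regions around the annotated starts of Awat1 and of Dgat2l6, the measured gene directly next to it, are shown because only the first of these neighbours differed between the arrays. The sequences are from RefSeq (GRCm38.p6), run 5′ to 3′ on the plus strand and cover 250 bases before the start and 50 from it. They span chrX:100571997-100572296 for Awat1 and chrX:100524588-100524887 for Dgat2l6. The single capital letter marks the annotated start, counted as position 0, and longer runs of capitals mark motif matches.
Awat1: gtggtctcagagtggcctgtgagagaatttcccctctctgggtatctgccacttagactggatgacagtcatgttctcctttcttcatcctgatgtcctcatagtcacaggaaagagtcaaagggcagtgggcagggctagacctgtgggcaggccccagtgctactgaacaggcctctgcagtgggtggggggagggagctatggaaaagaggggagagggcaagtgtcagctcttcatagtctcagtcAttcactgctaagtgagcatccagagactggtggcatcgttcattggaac
Dgat2l6: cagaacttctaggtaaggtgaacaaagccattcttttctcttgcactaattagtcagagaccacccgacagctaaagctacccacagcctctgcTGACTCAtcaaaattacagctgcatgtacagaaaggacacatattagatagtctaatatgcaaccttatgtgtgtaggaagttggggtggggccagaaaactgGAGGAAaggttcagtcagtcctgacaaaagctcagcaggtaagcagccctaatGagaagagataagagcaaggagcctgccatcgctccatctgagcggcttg
Both strands were searched for the E-box core CACGTG, the nuclear receptor element AGGTCA, the AP-1 site TGANTCA, the PU.1 core GAGGAA and the TATA box TATAAA. None of the 5 was found in the Awat1 window. The Dgat2l6 window held 1 AP-1 match at position -156 and 1 PU.1 core match at position -53, which do not overlap. Among all 32851 RefSeq windows of this length, 7.15% held the E-box core, 16.3% the nuclear receptor element, 7.81% the AP-1 site, 28.3% the PU.1 core and 13.6% the TATA box. A match is a string of letters in this window and not a measured binding site, and the absence of one says nothing about the factor.

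The values are log2 signals from RMA, a method that corrects background, normalises the arrays and summarises the probes of a row. With 1 array for each genotype there was no replicate error, so no test or p-value was computed. Background was set at the 95th percentile of 1428 genes of taste, olfactory and vomeronasal receptors, which are mostly silent outside sensory tissue, and was 5.31 in the KO-labelled array and 5.37 in the WT-labelled array. Genes with a mean over both arrays of at least 5.13, the median of all rows, passed the level filter, and 12516 did. The local spread given beside a difference is the median absolute deviation, multiplied by 1.4826, of the differences of genes of like level (1 of 20 bins), and it ranged from 0.24 to 0.36 on the log2 scale.

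The targeted gene, Pikfyve, was not lower in the KO-labelled array. It read 5.95 in the KO-labelled array and 5.68 in the WT-labelled array, so the difference and the local spread were both 0.27. The position of its probes relative to the floxed exons was not known here, and its row therefore checks nothing about the labels. The directions below therefore rest on the labels. Defining alveolar macrophage genes were present on both arrays, with all 12 measured of 14 listed above background. The X-linked Xist read 3.87 in the KO-labelled array and 3.57 in the WT-labelled array, within background, and the Y-linked Eif2s3y read 9.60 and 9.49 in the same order.

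Awat1 was at background in the WT-labelled array and well above it in the KO-labelled array. Its row (17536538, Entrez gene 245533) read 9.36 in the KO-labelled array and 4.85 in the WT-labelled array. The knockout value exceeded that of every receptor gene, and the wild type value exceeded 88.6% of them. The difference as read was 4.50, against a local spread of 0.30. Measured from the background level, because the wild type value is not above it, the KO-labelled array was at least 15.8-fold higher. With background set at the 99th percentile of the receptor genes, 6.55 in the WT-labelled array, this bound was 6.99-fold.

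Awat2, whose product is known to make wax esters and retinyl esters in the eyelid and skin glands of mice, was at background on both arrays. It read 4.50 in the KO-labelled array and 4.33 in the WT-labelled array. Dgat2l6, a family member named for its similarity to Dgat2, read 3.81 in the KO-labelled array and 3.86 in the WT-labelled array. The difference in Awat1 was not seen in either of the other X-linked members of its family. The Awat2 values exceeded 83.5% of receptor genes in the KO-labelled array and 78.7% in the WT-labelled array, and those of Dgat2l6 exceeded 66.2% and 66.6% in that order.

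**Figure D1:**
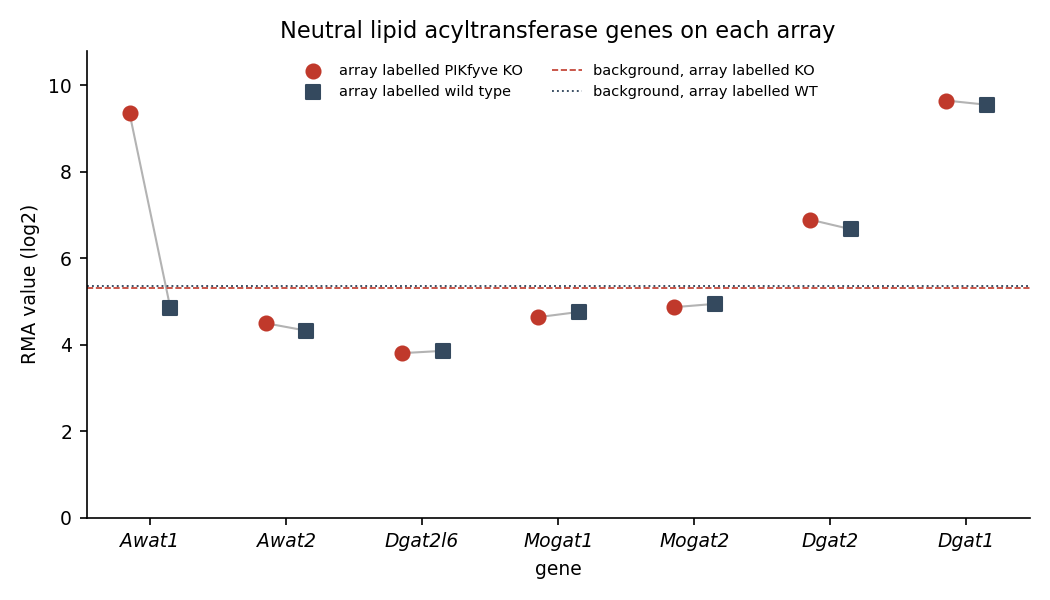
RMA values (log2, vertical axis) of the 7 acyltransferase genes with a row. Red circles are the KO-labelled array, dark squares the WT-labelled array, and the dashed and dotted lines the background of each array (5.31 and 5.37). Awat1 is the only gene on the plot with points on opposite sides of the lines. Dgat2 and Dgat1 lie above them and 4 genes below them on both arrays.

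The monoacylglycerol acyltransferases make diacylglycerol from monoacylglycerol, a step best known from fat absorption in the intestine. Both of their genes were also at background. Mogat1 read 4.64 in the KO-labelled array and 4.76 in the WT-labelled array. Mogat2 read 4.87 in the KO-labelled array and 4.95 in the WT-labelled array. Neither row reached the background level on either array, so no fold is given for them.

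The diacylglycerol acyltransferases, which catalyse the last step of triacylglycerol synthesis, were detected on both arrays at like levels. Dgat2 read 6.90 in the KO-labelled array and 6.67 in the WT-labelled array, a difference of 0.22 (1.17-fold) where the local spread was 0.28. Dgat1, whose product can also esterify retinol, read 9.65 in the KO-labelled array and 9.55 in the WT-labelled array, a difference of 0.10 (1.07-fold) where the local spread was 0.24. Both differences were smaller than the scatter of genes of like level.

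Of the 7 members, 3 passed the level filter (Awat1, Dgat2 and Dgat1), and Awat1 passed it only through its value in the KO-labelled array. Of these 3, 1 was at least 2-fold higher and 0 were at least 2-fold lower in the KO-labelled array. Across all genes that passed, 158 (1.26%) differed by at least 2-fold and 116 (0.927%) were at least 2-fold higher. Since Awat1 was picked for this difference, nothing is read from the count. The 6 other members differed by -0.12 to 0.22 with a median of 0.02, 3 higher and 3 lower in the KO-labelled array (4 and 2 after median centring), and all 6 lay within their local spread. The median over all genes that passed was 0.00.

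Awat1, which was picked for its difference, stood nearly alone among named genes in being at background on one array and high on the other. Of 11030 genes at background in the WT-labelled array, 709 were above background in the KO-labelled array, and 9 of them by at least 2-fold from the wild type background level. In the opposite direction, 656 genes were above background only in the WT-labelled array, and 0 of them by at least 2-fold from the knockout background level. No other gene at background in the WT-labelled array reached the level of Awat1 in the KO-labelled array, and no row without exactly 1 symbol did so. Among the rows without exactly 1 symbol, 3 had a larger absolute difference than Awat1. Among all named genes, 1 had a larger difference as read, the immunoglobulin segment Igkv8-30, at 8.63 in the KO-labelled array and 3.57 in the WT-labelled array. That gene and the others of this kind were singled out after their values were seen. The next highest were Cd200r2, of the CD200 receptor family, at 7.40 in the KO-labelled array and 4.99 in the WT-labelled array, and Gng8, which encodes a gamma subunit of G proteins, at 7.04 in the KO-labelled array and within background in the WT-labelled array.

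**Figure D2:**
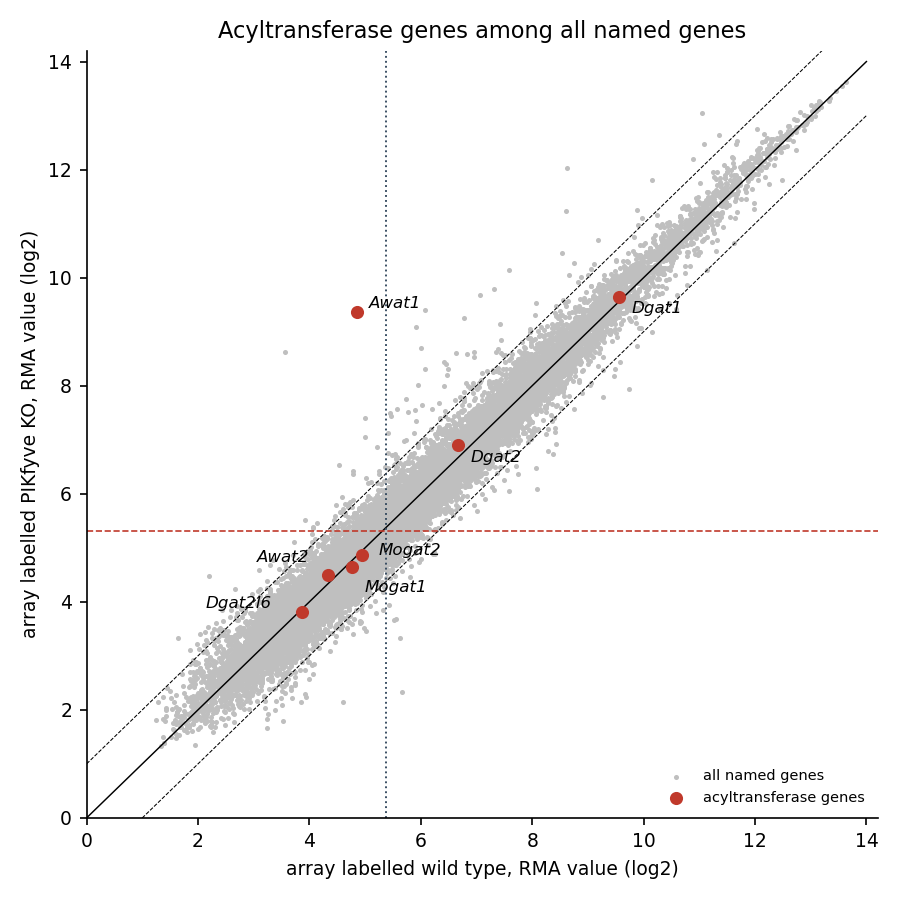
RMA values (log2) of all 22180 named genes, with the KO-labelled array on the vertical axis and the WT-labelled array on the horizontal axis. The solid diagonal marks equal values, the dashed diagonals a 2-fold difference, and the straight lines the background of each array. Awat1, at 9.36 and 4.85, lies far above the upper dashed diagonal, and the 6 other acyltransferase genes, also in red, lie between the dashed diagonals.

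Genes were ranked by the Euclidean distance over the 2 arrays of their pair of values from that of Awat1. Predicted genes, genes with only a clone name, small RNAs and antigen receptor segments were left out. The nearest of the genes kept were Fstl1, Fkbp11, Zranb3, Eci3 and Mamdc2. Fstl1, which encodes a secreted glycoprotein, was at a distance of 1.09 log2 units, with 9.08 in the KO-labelled array and 5.91 in the WT-labelled array. Fkbp11, a peptidyl-prolyl isomerase gene, was at a distance of 1.23, with 9.40 in the KO-labelled array and 6.08 in the WT-labelled array. Zranb3, Eci3 and Mamdc2 were at distances of 1.61 to 1.82. All 5 were above background on both arrays, where Awat1 was not. Among the genes left out, Igkv8-30 and 1700001K23Rik lay nearer to Awat1 than Zranb3. Igkv8-30 was, like Awat1, at background in the WT-labelled array, and 1700001K23Rik was above it on both arrays. A pair of arrays gives a position and no pattern across samples, so this is a ranking of values only.

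The genes around Awat1 on the X chromosome did not share its difference. Among the 10 measured genes on each side in the order of the RefSeq gene table (GRCm38.p6), differences ran from -0.44 to 0.61 with a median of 0.00, 10 higher and 10 lower in the KO-labelled array. Of these 20 genes, 13 were at background on both arrays, 6 were above it on both and 1 was above it on 1 array. Of all 22180 named genes, 11030 were at background in the WT-labelled array, and all but 709 of those were so on both arrays. On the far side of Awat1 from Dgat2l6 lies P2ry4, a nucleotide receptor gene, which read 4.75 in the KO-labelled array and 4.22 in the WT-labelled array, within background. The nearest neighbours above background were Igbp1, a regulatory subunit of protein phosphatases, at 11.28 in the KO-labelled array and 11.00 in the WT-labelled array, and Pdzd11, a PDZ domain gene, at 9.40 in the KO-labelled array and 9.08 in the WT-labelled array.

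Of the 20 neighbours, 1 differed by at least 1.5-fold and 0 by at least 2-fold, beside 8.12% of all named genes at least 1.5-fold apart when no level filter is used. That neighbour was Snx12, a sorting nexin gene of endosomes, at 8.14 in the KO-labelled array and 7.53 in the WT-labelled array, a difference of 0.61. It fell under 1.5-fold with quantile normalisation or an offset of 32.

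**Figure D3:**
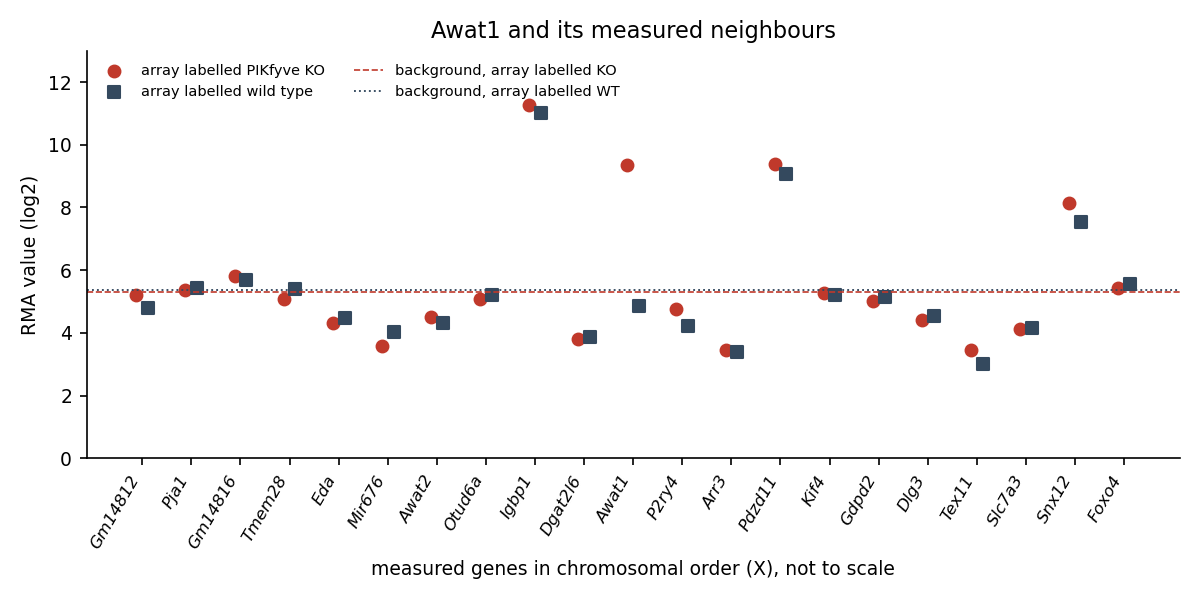
RMA values (log2, vertical axis) of Awat1 and the 10 measured genes on each side of it in chromosomal order, with even spacing. Red circles are the KO-labelled array, dark squares the WT-labelled array, and the lines the background of each array. The points of Awat1 lie 4.50 apart, and those of the other genes at most 0.61 apart.

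Genes of sebocytes, the gland cells known for making wax esters, were at background on both arrays. This held for all 7 listed (Mc5r, Elovl3, Far2, Scd3, Defb6, Cidea and Awat2), which spanned 3.50 to 4.79 in the KO-labelled array and 3.41 to 5.04 in the WT-labelled array. Of 5 measured keratinocyte genes, Krt1 alone was above background, at 5.85 in the KO-labelled array and 5.63 in the WT-labelled array.

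Markers of some other cells did differ between the arrays beside Awat1, and their part in its difference was not tested. Of 7 airway epithelium genes, 6 were above background on both arrays. The list spanned 4.48 to 12.39 in the KO-labelled array and 4.60 to 12.26 in the WT-labelled array, with a median difference of 0.82 over the 6 that passed the filter. In it, the airway secretory genes Bpifa1, Scgb3a1 and Scgb3a2 differed by 2.47, 1.47 and 0.99. The secretory gene Scgb1a1, the highest of the list on both arrays, differed by 0.14, and the adhesion molecule gene Epcam by -1.99. All 7 neutrophil genes were above background on both arrays, at 5.68 to 12.08 in the KO-labelled array and 5.78 to 11.63 in the WT-labelled array, and had a median difference of 0.70, with 6 higher and 1 lower in the KO-labelled array. Camp, an antimicrobial peptide gene of neutrophil granules, differed by 1.09, Retnlg by 0.93, Ly6g by 0.78 and the collagenase gene Mmp8 by 0.70. The lower gene was Csf3r, the receptor of granulocyte colony-stimulating factor, at -0.64.

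All 5 monocyte genes were above background on both arrays, at 5.68 to 7.87 in the KO-labelled array and 6.93 to 8.89 in the WT-labelled array, with a median difference of -1.02 and all 5 lower in the KO-labelled array. Fn1, which encodes fibronectin, differed by -1.54, Ms4a4c by -1.33, Plac8 by -1.02, Ly6c2 by -0.69 and Ccr2 by only -0.13. The T and NK cell genes above background, 5 of 6 on both arrays, had a median difference of 0.55, 4 higher and 1 lower in the KO-labelled array. The granzyme gene Gzma differed by 1.14, and the T cell receptor complex genes Cd3d and Cd3e by 0.78 and -0.13. The 6 measured genes of interstitial macrophages had a median difference of 0.45, with 5 higher and 1 lower in the KO-labelled array. Ms4a7 differed by 1.25. Of the genes of the complement C1q complex, C1qb differed by 0.64 and C1qa by 0.04. The lower gene was Csf1r, at -0.35. C1qc was at background in the WT-labelled array and at least 1.48-fold higher in the KO-labelled array. No eosinophil gene of the 5 listed was above background in the WT-labelled array, and 2 were in the KO-labelled array. From the background level, the granule protein gene Prg2 was at least 1.31-fold higher in the KO-labelled array. Epx, the eosinophil peroxidase gene, read 5.33 there, which is below the background of the WT-labelled array, so no fold is given for it.

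Alveolar type 2 and alveolar macrophage genes went both ways. Of the 5 type 2 genes that passed the filter, 2 were higher and 1 was lower by at least 1.5-fold in the KO-labelled array, and the median was -0.09. The surfactant protein genes Sftpa1 and Sftpc differed by 0.84 and 0.78, and the protease gene Napsa by -0.84. Of the 12 alveolar macrophage genes, 1 was higher and 3 were lower by at least 1.5-fold, with a median of 0.11. Across all genes that passed, 4.45% were higher and 2.66% lower by at least 1.5-fold. Krt79, a keratin gene, differed by -0.98, Cidec by -0.59 and the fatty acid binding protein gene Fabp4 by 0.62. Of the genes of the 2 sorting markers, Siglecf differed by -0.73 and Itgax, the gene of CD11c, by 0.36. The part of these differences in that of Awat1 was not tested.

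In the remaining lists 2 genes each passed the filter. The medians were -0.10 for B cells, with Cd79a at -0.15, 0.15 for fibroblasts, with Col1a1 at 0.17, -0.08 for endothelium, with Pecam1 at -0.21, 0.11 for keratinocytes and -0.23 for adipocytes, whose list shares Cidec with that of alveolar macrophages. In this sorted bulk RNA, more cells of a type and more RNA per cell cannot be told apart.

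The related lipid genes cover enzymes that feed the acyltransferases, other acyltransferases, and proteins that store or break down neutral lipids. Among those that passed the level filter, the share at least 1.5-fold apart lay near that of all genes. Over 8 lists of such genes, 87 of 91 listed were measured and 59 passed the level filter. Of those 59, 1 was at least 1.5-fold higher and 2 were at least 1.5-fold lower in the KO-labelled array, against 4.45% and 2.66% of all genes that passed, and 0 differed by 2-fold. Together 5.08% of the 59 were 1.5-fold apart, beside 7.11% of all genes that passed. Their median difference was 0.02, with 30 higher, 28 lower and 1 equal. Of the 2 genes counted as at least 1.5-fold lower, Acaca was at background in the KO-labelled array. From the background level, Acaca was at least 1.10-fold lower.

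Wax esters need a fatty alcohol as acceptor, made by the fatty acyl-CoA reductases. Far1, the more widely expressed of the reductases, read 7.94 in the KO-labelled array and 8.03 in the WT-labelled array. Far2, known from sebaceous glands, read 4.54 in the KO-labelled array and 4.08 in the WT-labelled array, within background. The list of fatty alcohol and ether lipid synthesis had a median of 0.04 over 5 genes that passed. The largest difference among these 5 was that of Agps, which makes the ether bond of plasmalogens, at 6.81 in the KO-labelled array and 7.14 in the WT-labelled array.

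Acyl-CoA, the other substrate, comes from the acyl-CoA synthetases and from fatty acid synthesis. The synthetases and fatty acid transport proteins had a median of 0.08 over 5 genes that passed, with Slc27a4, a transport protein with synthetase activity, at 6.12 in the KO-labelled array and 5.56 in the WT-labelled array. Acsl5 read 9.44 in the KO-labelled array and 9.42 in the WT-labelled array. Fatty acid synthesis, desaturation and elongation genes had a median of -0.14 over 9 that passed. Acaca, the acetyl-CoA carboxylase of the committed step, was at background in the KO-labelled array at 4.84, against 5.45 in the WT-labelled array, at least 1.10-fold lower from the background level. The elongase gene Elovl1 read 10.05 in the KO-labelled array and 9.91 in the WT-labelled array.

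The glycerol phosphate route, which supplies diacylglycerol through the GPAT, AGPAT and lipin enzymes, had a median of -0.11 over 11 genes that passed, none of them 1.5-fold apart. Agpat2, a lysophosphatidate acyltransferase gene, differed most, at 5.69 in the KO-labelled array and 6.02 in the WT-labelled array. The lysophospholipid acyltransferases and other MBOAT genes had a median of -0.09 over 7, and Lpcat2, a lysophosphatidylcholine acyltransferase gene of inflammatory cells, was the gene at least 1.5-fold higher, at 6.78 in the KO-labelled array and 6.12 in the WT-labelled array. Of the other esterifying enzymes, with a median of -0.19 over 3 genes, Lcat, the plasma enzyme that esterifies cholesterol on lipoproteins, read 5.40 in the KO-labelled array and 5.93 in the WT-labelled array. Lrat, the main retinol esterifying enzyme, was within background on both arrays, at 4.87 in the KO-labelled array and 5.28 in the WT-labelled array.

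Lipid droplet genes, with a median of 0.12 over 8 that passed, included Cidec, a droplet fusion protein gene, at 9.70 in the KO-labelled array and 10.28 in the WT-labelled array, a difference of -0.59. Plin2, the main droplet coat protein of macrophages, read 11.88 in the KO-labelled array and 11.95 in the WT-labelled array. Plin5, named after its values were seen, did not pass the filter. It read 5.40 in the KO-labelled array and 4.40 in the WT-labelled array, the first just above and the second below background. Neutral lipases and cholesteryl ester hydrolases had a median of 0.06 over 11. Hilpda, an inhibitor of the triacylglycerol lipase ATGL, differed most among these 11, at 11.49 in the KO-labelled array and 10.98 in the WT-labelled array. Lipa, the lysosomal acid lipase, read 9.94 in the KO-labelled array and 9.67 in the WT-labelled array, and Nceh1, a neutral cholesteryl ester hydrolase gene, read 11.17 in the KO-labelled array and 11.29 in the WT-labelled array.

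**Figure D4:**
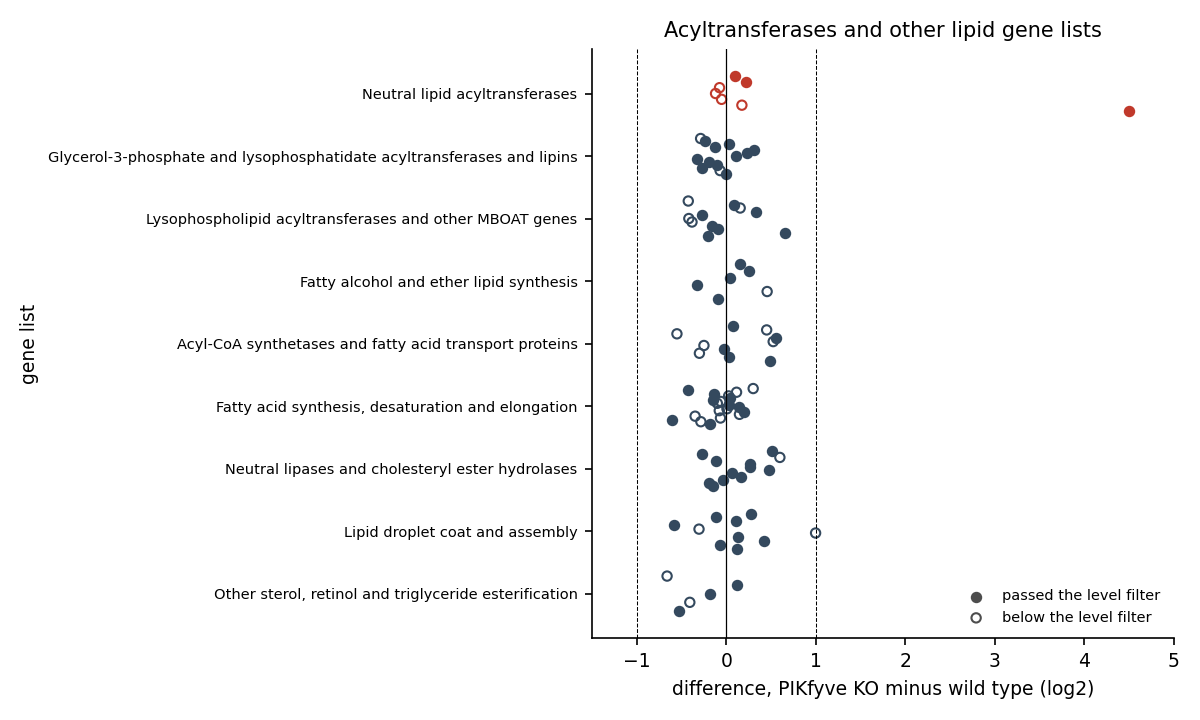
Difference of each measured gene, PIKfyve KO minus wild type (log2, horizontal axis), for the acyltransferases in red and for 8 lists of related lipid genes in dark blue, 1 row a list. Filled points passed the level filter, open points did not, and dashed lines mark 2-fold. Awat1, at 4.50, is the only point of the plot beyond them, and Plin5, an open point, lies just inside.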

How the data were processed

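Expression was measured on Affymetrix microarrays, 1 array for each genotype. Per the submitters' processing notes the authors used RMA, and they deposited log2 values for 41345 rows; the sources used here give neither the RMA version nor a genome build. The log2 scale is taken from the method and from values of 0.77 to 13.86. Rows were named through the platform's gene annotation: 23521 had 1 symbol, 1814 had several and 16010 had none. Of the 23521, 23328 matched RefSeq (GRCm38.p6) by Entrez identifier. Rows of 1 gene were averaged, for 1082 genes with more than 1 row. Differences are PIKfyve KO minus wild type, computed with Python 3.11.15 and pandas 2.3.3, and the code was tested on simulated data. Members, gene lists and naming rules were chosen with earlier results of these data known. The naming rule took all members, Pikfyve, the 5 genes nearest to Awat1, and its direct or 1.5-fold different chromosomal neighbours. The ranking of nearest genes left out predicted genes, clone names, small RNAs, antigen receptor segments and all symbols beginning with Rn. Of each list the naming rule took up to 4 genes that passed the filter and were at least 1.5-fold apart, or else the gene furthest apart. Other list genes and neighbours were named after their values were seen. RefSeq promoter sequences were found for 5 of the 9 genes. No scanner files were used, and the number of arrays limits the precision.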

Additional observations from a re-analysis of the deposited data

How the results depend on the processing

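The 11 alternatives were median centring, quantile normalisation, loess centring (span 0.3), 32 added to the linear signals (the offset), the highest row of each gene, 3 other filters, folds of 1.5 and 3, and another background level. Awat1 was at least 2-fold, and at least 3-fold, higher in the KO-labelled array under each of them. The filters, the folds and the highest row could not alter the value of Awat1, which has 1 row. Its difference was 4.50 to 4.57 under the centrings, quantile normalisation and the highest row, and 3.50 with the offset; measured from background it was 3.98, or 2.81 with background at the 99th percentile of receptor genes, the cause being the higher floor. The 6 other members stayed between -0.12 and 0.29. The sign of Dgat2l6, -0.05 as deposited, turned under median centring (0.01), which moved the median of all genes that passed by 0.07. Genes at least 2-fold higher and lower numbered 116 and 42 as deposited, 62 and 18 with the offset, 175 and 117 without a filter, 557 and 333 at 1.5-fold, and 37 and 4 at 3-fold. Chromosomal neighbours at least 1.5-fold apart numbered 2 with median centring and 0 with quantile normalisation or the offset. With fewer genes left by the 75th percentile filter, the median was 0.33 for the lysophospholipid acyltransferase list (-0.09 as deposited), 0.03 for the glycerol phosphate route (-0.11), 0.78 for alveolar type 2 cells (-0.09) and -0.59 for adipocytes; with the filter at the receptor background it was 0.30 for alveolar type 2 cells. The keratinocyte median, 0.11, was -0.06 without a filter, and the median of the chromosomal neighbours lay within 0.07 of 0 on either side. The eosinophil median, 0.71 as read from values not above background in the WT-labelled array, was 0.38 with the offset and 0.40 without a filter, and no sebocyte gene passed the filter as used, so that list has no median. Apart from the offset's effect on size, the cause of these changes was not tested. No paired analysis was possible because each genotype has 1 array, and no replicate could be left out.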
